A study of Mus musculus with 77 samples.

Results

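The miR-148 and miR-152 family of the mouse consists of 3 microRNAs (miRNAs), mmu-miR-148a, mmu-miR-148b and mmu-miR-152, which were taken by name from a table of 603 probes, 566 of them for mouse miRNAs. The family was chosen by the high signal of miR-148a in CD11b/Ly6C cells in these same data, so its values in those cells against the other immune cells are given as a description. A miRNA is a short RNA that guides silencing complexes to messenger RNAs, and its bases 2 to 8, the seed, do most of the pairing. Members of this family are known to repress the DNA methyltransferase Dnmt1, the cholesterol exporter Abca1 and, for miR-148a in B cells, regulators of B cell tolerance. miR-148a is also known from T helper cells and from liver lipid handling.

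The study compared microglia, the resident macrophages of the brain, which its design text says were sorted by the surface marker FCRLS, with immune and neural cells. All miRNA samples were labelled C57BL/6 mice, with no treatment named, and their total RNA was counted on the NanoString nCounter, which counts barcoded probes without amplification. The 24 libraries of the immune set held 4 splenic lymphocyte populations (NK1.1 NK cells, B220 B cells, CD3/CD4 T cells and CD4 regulatory T cells labelled Foxp3), 4 CD11b/Ly6C populations (Ly6C low and high, each from spleen and bone marrow), macrophages of 7 organs, adult microglia of 7 sites, 1 library of splenic CD11b/CD11c dendritic cells and 1 of Ly6G neutrophils from blood. The 12 libraries of the neural set held 2 each of microglia, red pulp macrophages of the spleen, astrocytes and oligodendrocytes labelled adult, and neurons labelled primary, from cortex and from hippocampus. Each immune-set group was made of different populations, organs or sites with 1 library each, so its SD covers that variety. The labels give no animal numbers for these libraries, nor say that they came from separate animals or cultures, so p-values measure only the spread between these samples.

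The mature RNAs of the 3 members, from RefSeq on GRCm38.p6, are shown because the shared seed defines the family. The seed is in capitals.
miR-148a: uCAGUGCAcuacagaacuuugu
miR-148b: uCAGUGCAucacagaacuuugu
miR-152: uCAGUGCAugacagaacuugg
These are the arms cut from the 3′ side of the hairpins. The probe names give no arm, and the match to these arms rests on the older naming of the main product. All 3 members matched, and of 1738 mature mouse miRNAs in the RefSeq table these 3 carried the seed. With positions counted from 1 at the 5′ end, miR-148b differed from miR-148a by C9U and U10C. miR-152 differed from miR-148a by C9U, U10G and U20G and was 21 bases long against 22. The probes therefore had to separate RNAs that differ by 2 or 3 bases and, for miR-152, in length.

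The 3 genes lie apart. Mature miR-148a is encoded at chr6:51269829-51269850 on the minus strand, within the bounds of Gm38821, a predicted gene. Mature miR-148b lies at chr15:103285185-103285206 on the plus strand within the bounds of Copz1. Mature miR-152 lies at chr11:96850439-96850459 on the plus strand within the bounds of Copz2. Copz1 and Copz2 encode paralogous zeta subunits of the COPI coat, which carries vesicles from the Golgi to the endoplasmic reticulum. The gene table gives bounds without strand or exons.

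In the immune set the deposited value is a normalised signal, and every value was a whole multiple of 1 count, so counts could be recovered. Totals ran from 1741 to 75635 counts (median 5566), and 11 of the 24 libraries had under 5000. Background was set by 33 probes for viral miRNAs. A value above their mean plus 2 SD in the same library is called above the limit. The limit ran from 2.38 to 38.0 in the immune set and from 51.9 to 258.6 in the neural set, where values are scores on another scale, so levels are not set across the sets. Counting intervals are exact 95% Poisson intervals and, like the 95% Wilson intervals of shares, cover counting error only. The lowest count in any library was 1, so 0 and 1 could not be told apart.

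Labels were checked against defining miRNAs. miR-223, of granulocytes and monocytes, had signals of 1762 to 11442 in the CD11b/Ly6C populations but 0.87 to 132.4 in microglia. miR-150, of mature lymphocytes, had 488.2 to 2575 in the lymphocytes. The neutrophil library, however, held miR-223 at 326.1 and miR-150 at 272.6, and miR-150 was above the limit in 5 of 7 macrophage libraries. miR-342-3p, a microglial miRNA of the study, had 153.3 to 1013 in immune-set microglia but also 85.1 to 601.2 in lymphocytes, and 900 and 993 in neural-set microglia against 30 to 125 in the other 10 libraries. In the neural set the first hippocampal neuron library stood apart: 160 of its 566 miRNAs shared the lowest value, its viral mean was the highest (79.5), and miR-124, a neuronal miRNA, was at 16 against 331 in the second library, as was miR-9, of neurons and astrocytes, against 905. The second cortical neuron library also held miR-124 below its limit, at 30. Both astrocyte libraries held it above theirs, at up to 111, and had the highest miR-9, at 2849 and 1011. Both red pulp macrophage libraries held miR-142-3p, which macrophages share, under their limits of 113.2 and 112.7, at 31 and 24. The same held for miR-223, at 69 and 53, and miR-150, at 38 and 49, with 38 and 44 of 566 miRNAs above the limit. miR-142-5p, also listed as a blood-cell miRNA, was above the limits, at 425 and 450. It was, however, at 367 to 745 in cortical neurons, so it did not separate blood cells from neural cells in this set. miR-142-3p also missed the limit in the first neural-set microglia library, at 71 against 74.2. It passed in 3 of 7 immune-set macrophage libraries. The red pulp label was therefore not borne out by miR-142-3p or settled by miR-142-5p, and comparisons with the red pulp libraries rest on the label alone.

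miR-148a was the abundant member in CD11b/Ly6C cells, was lower in lymphocytes, and was never above background in microglia. It was above the limit in 10 of 24 immune-set libraries: all 4 CD11b/Ly6C libraries, all 4 lymphocyte libraries, and lung and gut macrophages. Its signal was 248.95 in Ly6C-low bone marrow cells, 190.94 in Ly6C-low spleen cells, 81.38 in Ly6C-high bone marrow cells and 48.43 in Ly6C-high spleen cells. Those 4 libraries were the highest of the 24.

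Among lymphocytes the miR-148a signal was 33.96 in regulatory T cells, 30.46 in B cells, 29.92 in NK cells and 15.29 in CD4 T cells. Each lay 8.25 to 25.2 times above the viral mean of its library. The counting intervals of the first 3 overlapped, from 20.6 at the lowest bound to 46.8 at the highest, while that of CD4 T cells was 10.8 to 21.1. B cells and CD4 T cells, with 125 and 37 counts of miR-148a in the largest lymphocyte libraries, did not overlap.

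In organ macrophages the miR-148a signal was 38.38 in gut, 34.13 in liver, 18.65 in lung, 15.29 in heart, 11.2 in muscle, 7.71 in spleen and 5.16 in kidney. Only gut and lung passed their limits, of 33.9 and 10.9, and the liver value, the second highest, stayed under a limit of 38.0. The gut value equalled the highest viral probe of its library and lay under a limit of the mean plus 3 SD (43.64). Each macrophage value rested on 10 counts or fewer, and the gut value of 5 counts had an interval of 12.5 to 89.6, which reached into the range of the Ly6C-high cells. Lung macrophages, where miR-148a was above background, also held the most miR-150 (160.4) and miR-223 (887.6) of the 7 organs, whereas gut macrophages held 7.68 and 30.7. The part of other cells in these values was not tested. In such sorted bulk samples, fewer cells of a type and less RNA per cell cannot be told apart.

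In microglia the miR-148a signal was 7.57 in spinal cord, 6.97 in eye, 5.07 in olfactory bulb, 4.28 in cerebellum, 3.0 in hippocampus, 1.31 in whole brain and 0.87 in cortex. All 7 lay under their limits, on 1 to 3 counts each. The deeper libraries held no more of it: the whole-brain and cortex libraries had 32277 and 15643 counts and held 3 and 1 of miR-148a, while the Ly6C-high spleen library had 5283 and held 18. Dendritic cells and neutrophils held 1 count, under limits of 24.2 and 24.5, so a signal below those limits could not have been seen there.

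**Figure D1:**
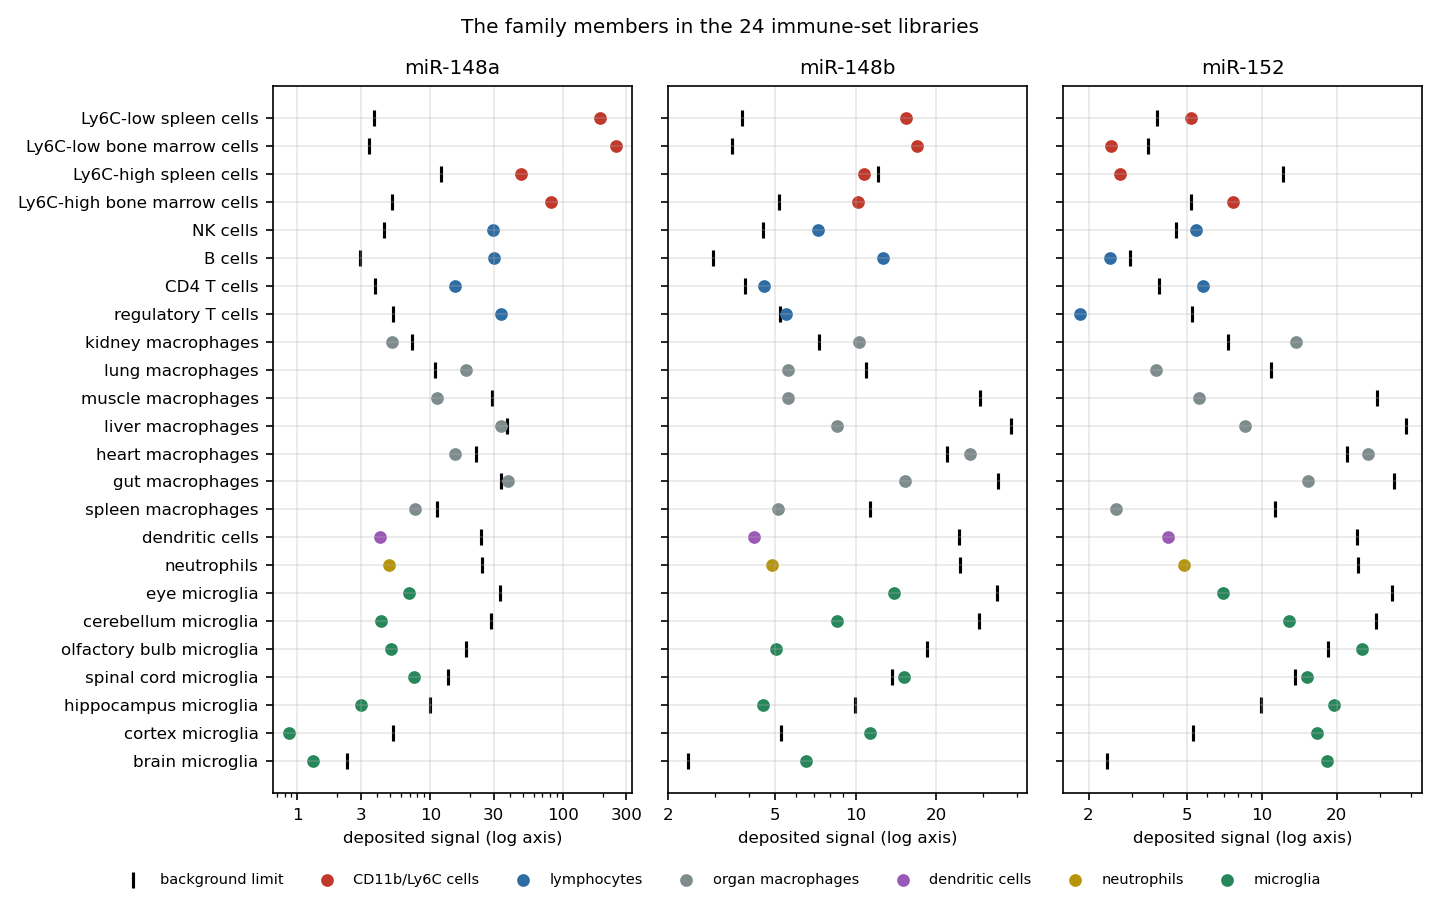
Deposited signal (log axes) of each family member in the 24 immune-set libraries, coloured by group, with each library's background limit as a black tick. miR-148a lies above its tick in all CD11b/Ly6C and lymphocyte libraries and in none of the 7 microglia libraries, while miR-152 lies above it in 5 of 7 microglia libraries.

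Averaged by group, miR-148a was 142.4 ± 93.6 (SD, n = 4) in CD11b/Ly6C cells, 27.4 ± 8.27 (n = 4) in lymphocytes, 18.6 ± 12.9 (n = 7) in organ macrophages and 4.15 ± 2.60 (n = 7) in microglia. On the log2(signal + 10) scale, which understates changes of low miRNAs, CD11b/Ly6C cells exceeded microglia by 3.21 ± 0.397 (SE), organ macrophages by 2.29 ± 0.397 and lymphocytes by 1.82 ± 0.448. These are the values that selected the family and are given without a test. miR-148a was the 1 member of 3 that reached the minimum for testing, a signal above 20 in at least 4 of 22 libraries. As background, the share of the 132 miRNAs past a limma adjusted p of 0.05 was 15.2% against microglia, 47% against organ macrophages and 6.82% against lymphocytes.

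The comparison of organ macrophages with lymphocytes does not contrast the CD11b/Ly6C cells, whose signal selected the family. The members were nevertheless chosen with earlier results of these data known. miR-148a was lower in organ macrophages by 0.47 on the log2 scale (95% interval -1.27 to 0.32), which did not pass the test (limma, Benjamini-Hochberg adjusted p = 0.289), in a comparison where 68.9% of the 132 miRNAs did. The median of those 132 miRNAs was 0.85 higher in organ macrophages, so relative to the median miR-148a lay 1.33 lower. That median depended on the scaling: it was -0.03 after quantile normalisation and 1.07 when libraries were scaled to their 100 highest miRNAs, and miR-148a stayed lower in organ macrophages under both. edgeR's quasi-likelihood test on the recovered counts, with its own scaling, gave a log2 difference of -1.8 with an adjusted p of 0.013, so the call depends on the method. Depth and background also differed between these groups. Lymphocyte libraries held 15598 to 75635 counts, with viral means of 1.21 to 2.39. Macrophage libraries held 1741 to 7148 counts, with viral means of 3.18 to 17.1, and only 2 of 7 miR-148a values passed their limits. The part of depth and background in the share, the median and the miR-148a difference was not tested.

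Within CD11b/Ly6C cells, miR-148a was higher in the Ly6C-low than in the Ly6C-high cells of both organs. Ly6C is a surface protein whose level divides classical, Ly6C-high monocytes from Ly6C-low ones, although a CD11b gate can also hold granulocytes. In the spleen the low cells had 185 counts and the high cells 18, a ratio of signals of 3.94 (95% counting interval 2.43 to 6.8). In bone marrow, with 604 and 64 counts, the ratio was 3.06 (2.36 to 4.02). With 1 library for each population there is no replicate check and no test.

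The direction of both Ly6C ratios stayed above 1 under 3 other scalings, between 1.97 and 4.63. Among 34 miRNAs with a signal above 20 in all 4 libraries, the median low-to-high ratio was 0.953 in the spleen and 1.11 in bone marrow, and miR-148a had rank 2 in the spleen and rank 3 in bone marrow, counted from the highest. The ratio was above 2 in both organs for 3 of these 34 miRNAs: miR-148a, miR-142-3p, which blood cells share, and miR-340-5p. miR-223 had ratios of 1.24 and 2.59, so the myeloid marker also stood higher in the low cells, and its part in the miR-148a difference was not tested.

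Between organs the order of miR-148a was not stable. In Ly6C-low cells the bone marrow to spleen ratio was 1.3 (1.1 to 1.55) as deposited but 0.542 per total count and 0.639 when scaled to the 100 highest miRNAs. In Ly6C-high cells it was 1.68 (0.983 to 3.01). miR-223 took a large part of the Ly6C-low bone marrow library, with 27760 of 70672 counts against 2117 of 11730 in the Ly6C-low spleen library. In Ly6C-high cells it took 3478 of 18583 counts in bone marrow and 655 of 5283 in the spleen.

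**Figure D2:**
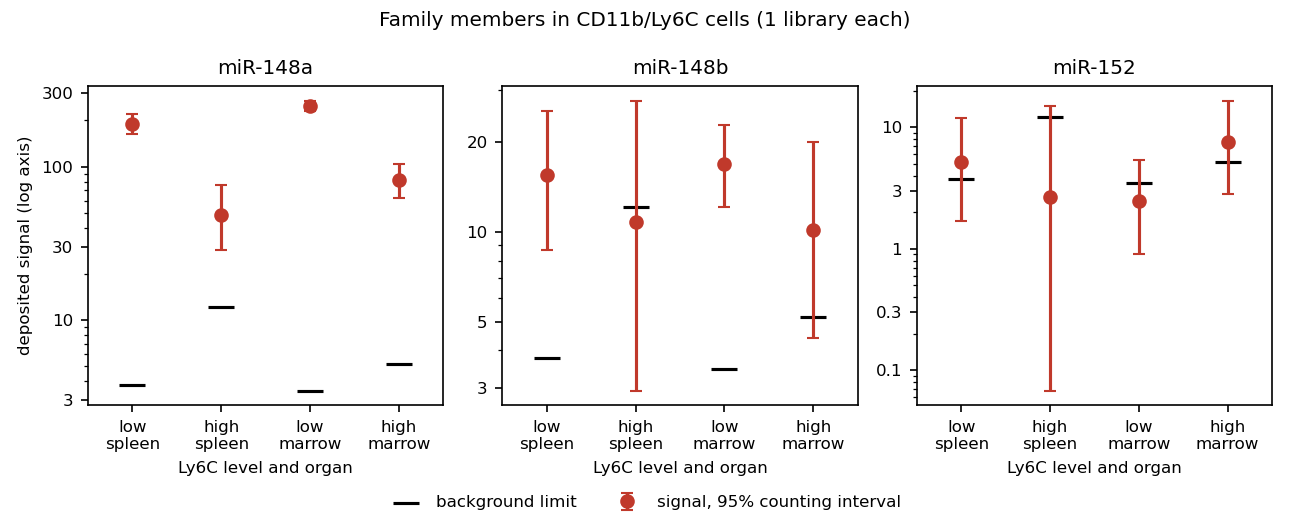
Deposited signal (log axes) of the 3 members in the CD11b/Ly6C populations, 1 library each, with 95% counting intervals and background limits. The miR-148a intervals of Ly6C-low and Ly6C-high cells do not overlap within either organ, while those of miR-148b and miR-152 do.

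miR-148b was low throughout. In CD11b/Ly6C cells its signal was 16.9 and 15.48 in the low cells of bone marrow and spleen, 10.76 in the high cells of the spleen and 10.17 in those of bone marrow, a mean of 13.3 ± 3.36 (SD, n = 4). The low-to-high ratios were 1.44 in the spleen (0.458 to 5.95) and 1.66 in bone marrow (0.769 to 4.1), intervals that include both 1 and the miR-148a ratio of the same organ. On 4 to 41 counts a difference by Ly6C level was not detectable at this depth.

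In lymphocytes miR-148b was 12.67 in B cells, 7.25 in NK cells, 5.51 in regulatory T cells and 4.55 in CD4 T cells, all above the limit. The last 2 were marginal. Both lay under a limit of the mean plus 3 SD (6.63 and 4.86), and the regulatory T cell value, of 6 counts, under its highest viral probe (6.42). B cells, with 52 counts, had a counting interval of 9.47 to 16.6, above the 2.27 to 8.13 of CD4 T cells. In microglia it was above the limit in cortex (11.36), spinal cord (15.13) and whole brain (6.56), with 4.5 to 13.94 in the other 4. The spinal cord value equalled the highest viral probe of its library. In macrophages it passed in kidney (10.32) and heart (26.75). Both values equalled the highest viral probe of their libraries, and that of heart lay under the mean plus 3 SD (28.44). Group means were 7.5 ± 3.63 (SD, n = 4) in lymphocytes, 9.30 ± 4.26 (n = 7) in microglia and 11.0 ± 7.81 (n = 7) in organ macrophages, and the 4 group ranges overlapped. The log2 difference of CD11b/Ly6C cells was 0.29 ± 0.303 (SE) from microglia, 0.21 ± 0.303 from organ macrophages and 0.43 ± 0.342 from lymphocytes.

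miR-152 ran the other way from miR-148a. In microglia its signal was 25.37 in olfactory bulb, 19.49 in hippocampus, 18.37 in whole brain, 16.6 in cortex and 15.13 in spinal cord, each above its limit, and 12.83 in cerebellum and 6.97 in eye, below limits of 28.8 and 33.6. The spinal cord value, of 4 counts, equalled the highest viral probe of its library and lay under a limit of the mean plus 3 SD (17.41). The best measured library, whole brain, held 42 counts, at 16.7 times its viral mean. Elsewhere miR-152 ranged from 2.47 to 7.63 among the CD11b/Ly6C populations and from 1.84 to 5.79 among lymphocytes. The 5 microglia libraries above the limit had higher signals than both groups, but they were picked by passing the limit. Eye microglia, at 6.97, lay inside the CD11b/Ly6C range. The counting interval of Ly6C-high bone marrow cells (2.8 to 16.6) overlapped those of all 5, including whole brain (13.2 to 24.8) and spinal cord (4.12 to 38.7).

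Organ macrophages overlapped microglia for miR-152. Their signal was 26.75 in heart and 13.77 in kidney, both above the limit, and 2.57 to 15.35 in the other 5, below it. The heart value, of 7 counts, equalled the highest viral probe of its library and lay under a limit of the mean plus 3 SD (28.44). Group means were 16.4 ± 5.73 (SD, n = 7) in microglia, 10.9 ± 8.50 (n = 7) in organ macrophages, 4.49 ± 2.42 (n = 4) in CD11b/Ly6C cells and 3.88 ± 2.03 (n = 4) in lymphocytes. The log2 difference of CD11b/Ly6C cells from microglia was -0.85 ± 0.302 (SE). In libraries with at least 5000 counts, the 3 microglia libraries had 16.6 to 19.49 and the other 10 had 1.84 to 13.77. The counting intervals of kidney macrophages (5.94 to 27.1) and of cortex microglia (9.99 to 25.9) overlapped, so the order of those neighbours is open to counting error.

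The make-up of the family does not depend on how libraries were scaled, and was examined after the values had been seen. miR-148a made up 78.3% to 92.8% of the family's counts in the 4 CD11b/Ly6C libraries and 59.7% to 82.2% in the 4 lymphocyte libraries. In microglia it made up 3.03% to 25%, with the highest share in the eye, on 4 family counts. The 17.6% to 66.7% of organ macrophages overlapped both, with kidney (17.6%) and heart (22.2%) inside the microglia range and lung and liver at 66.7%. Probes can differ in efficiency, so a share is set only against the same share in other libraries, and background counts are included.

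The miR-152 share was 0.922% to 7.69% among the CD11b/Ly6C populations, 4.44% to 22.6% among lymphocytes, and 72.2% in hippocampus (Wilson interval 49.1% to 87.5%), 57.6% in cortex (40.8% to 72.8%) and 70.0% in whole-brain microglia (57.5% to 80.1%). The other 4 microglia libraries, on 4 to 10 family counts, had 71.4% in olfactory bulb, 50% in cerebellum, 40% in spinal cord and 25% in eye. The highest lymphocyte share, 22.6% in CD4 T cells, had an interval of 14.0% to 34.4%, below those of hippocampus, cortex and whole brain but not below that of the eye (4.56% to 69.9%). Kidney and heart macrophages lay within the range of microglia, with 47.1% (26.2% to 69.0%) and 38.9% (20.3% to 61.4%). The other macrophage libraries held 15 family counts or fewer.

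**Figure D3:**
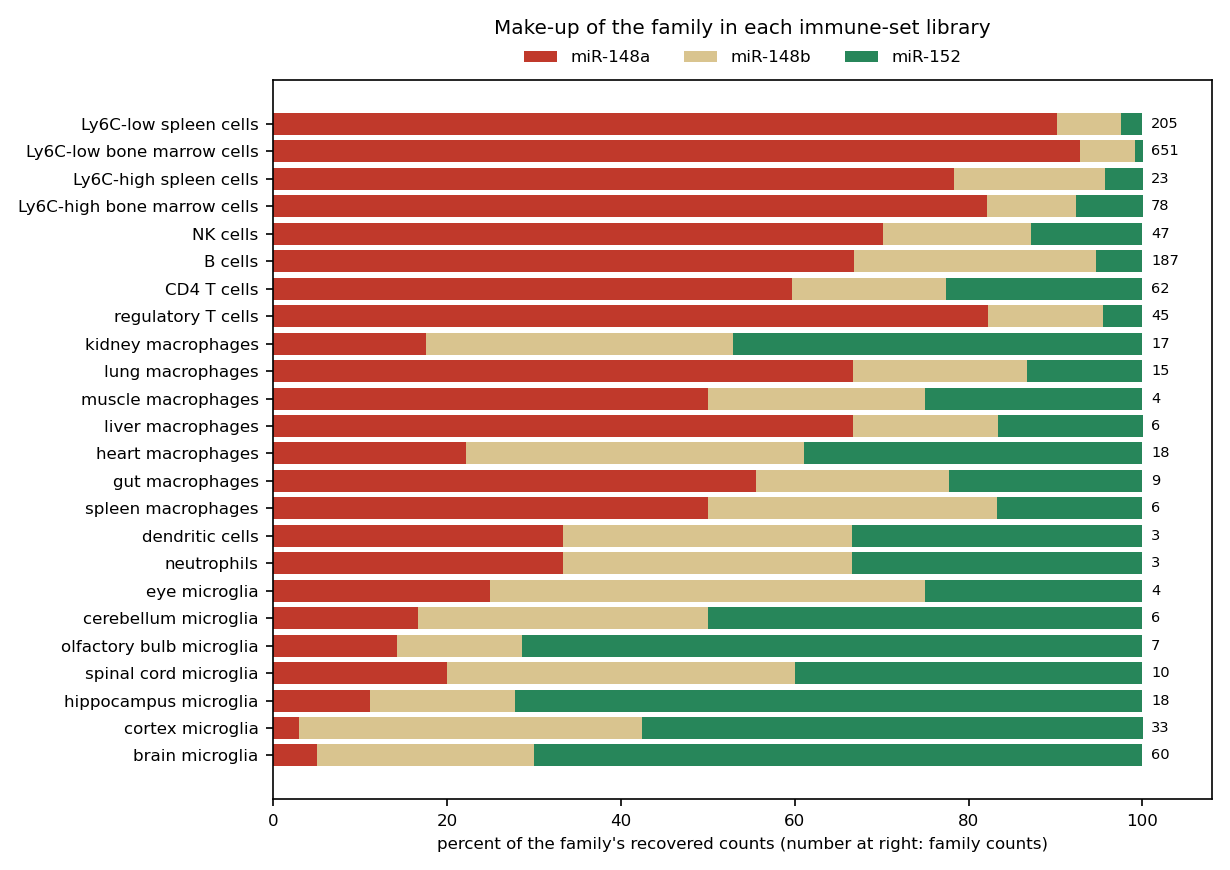
Percent of the family's recovered counts given by each member in every immune-set library, with the number of family counts at the right. The red miR-148a part is 59.7% or more in the 8 CD11b/Ly6C and lymphocyte libraries, and the green miR-152 part is 57.6% or more in the hippocampus, cortex and whole-brain microglia.

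In the neural set the family stayed at background. Only miR-148a in the second hippocampal neuron library passed a limit, at 58 against 51.9, and it equalled the highest viral probe of that library. miR-148a scored 26 and 15 in microglia, 38 and 32 in red pulp macrophages, 30 and 35 in astrocytes, 24 and 11 in oligodendrocytes, 45 and 45 in cortical neurons, and 16 and 58 in hippocampal neurons. The 2 hippocampal libraries, of 1 cell type, lay further apart than the means of any 2 cell types.

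miR-148b scored 17 and 29 in microglia, 50 and 44 in red pulp macrophages, 32 and 27 in astrocytes, 12 and 29 in oligodendrocytes, 42 and 22 in cortical neurons, and 16 and 21 in hippocampal neurons. Both red pulp libraries had the highest scores but lay at 0.812 and 0.792 of their viral means. miR-152 scored 23 and 29 in microglia, 46 and 40 in red pulp macrophages, 20 and 49 in astrocytes, 21 and 27 in oligodendrocytes, 28 and 15 in cortical neurons, and 94 and 25 in hippocampal neurons. The 94 belonged to the library that stood apart, whose limit was 258.6. In neural-set microglia miR-152 thus stayed under limits of 74.2 and 75.1, with viral means of 37.4 and 38.1. As the scales differ, this cannot show whether the miR-152 signal of immune-set microglia was present there below the limits.

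**Figure D4:**
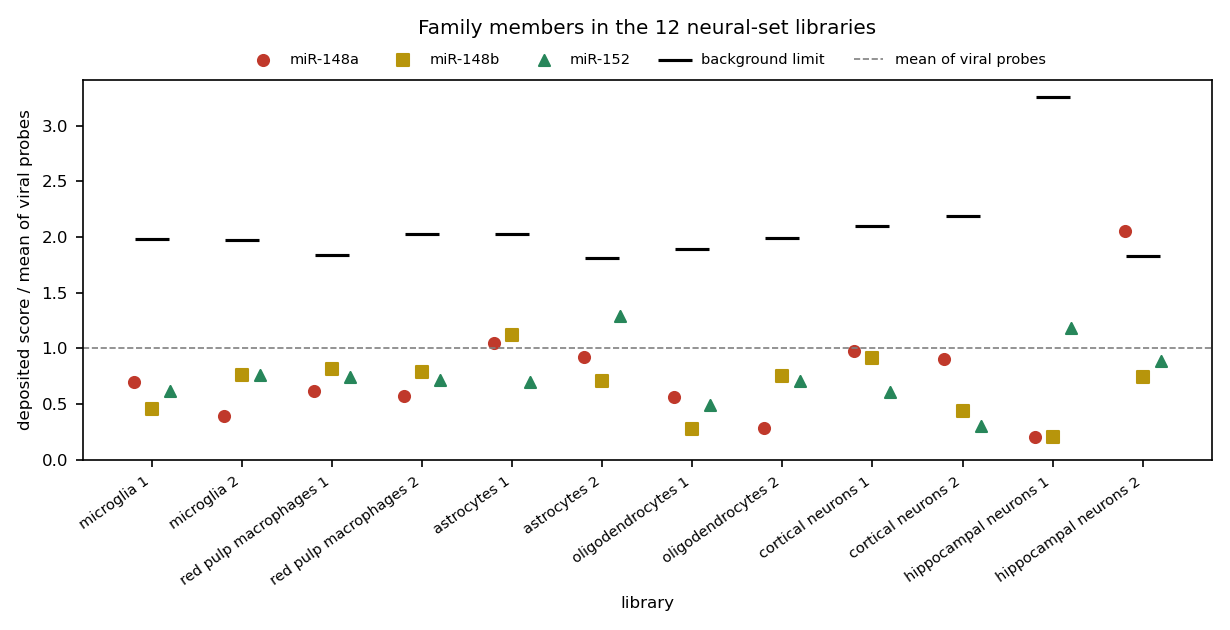
Deposited score of each member divided by the mean of the viral probes in the same library, for the 12 neural-set libraries, with the background limit as a black bar and the viral mean as a dashed line. Of 36 points, 1 lies above its bar, miR-148a in the second hippocampal neuron library.

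None of the 3 members passed limma's test in any of the 4 neural-set comparisons, and 0 had an unadjusted p under 0.05. Microglia differed from the mean of the 4 neural cell types by -0.42 (95% interval -1.24 to 0.39), -0.07 (-0.82 to 0.69) and -0.17 (-1.04 to 0.70) on the log2 scale for miR-148a, miR-148b and miR-152 (limma, adjusted p = 0.983 for each), where 1.94% of 566 miRNAs passed. Red pulp macrophages differed from the same mean by 0.16 (-0.66 to 0.97), 0.74 (-0.01 to 1.5) and 0.39 (-0.48 to 1.26), with limma adjusted p of 0.887, 0.509 and 0.696. There 0% of miRNAs passed, and 53 of 566 had an unadjusted p under 0.05 by limma. A difference within these intervals was not detectable with 2 libraries a cell type.

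Microglia were below red pulp macrophages by 0.58 (interval of the difference -1.61 to 0.45), 0.81 (-1.77 to 0.14) and 0.56 (-1.66 to 0.54), with limma adjusted p of 0.643, 0.63 and 0.652, where 1.77% of miRNAs passed. The median of all miRNAs differed by -0.47 in that comparison, close to the members' own values. Primary neurons differed from adult glia by 0.51 (-0.21 to 1.24), 0.002 (-0.67 to 0.68) and 0.19 (-0.58 to 0.97), with adjusted p of 0.448, 0.996 and 0.789 by limma, where 0.353% passed. Without the first hippocampal neuron library the neurons-to-glia values were 0.86, 0.07 and -0.20 and no member passed, while the miRNAs that passed rose from 2 to 19 in that comparison, from 11 to 31 for microglia and from 0 to 63 for red pulp macrophages against neural cells. Comparisons within a set share libraries and one estimate of spread.

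**Figure D5:**
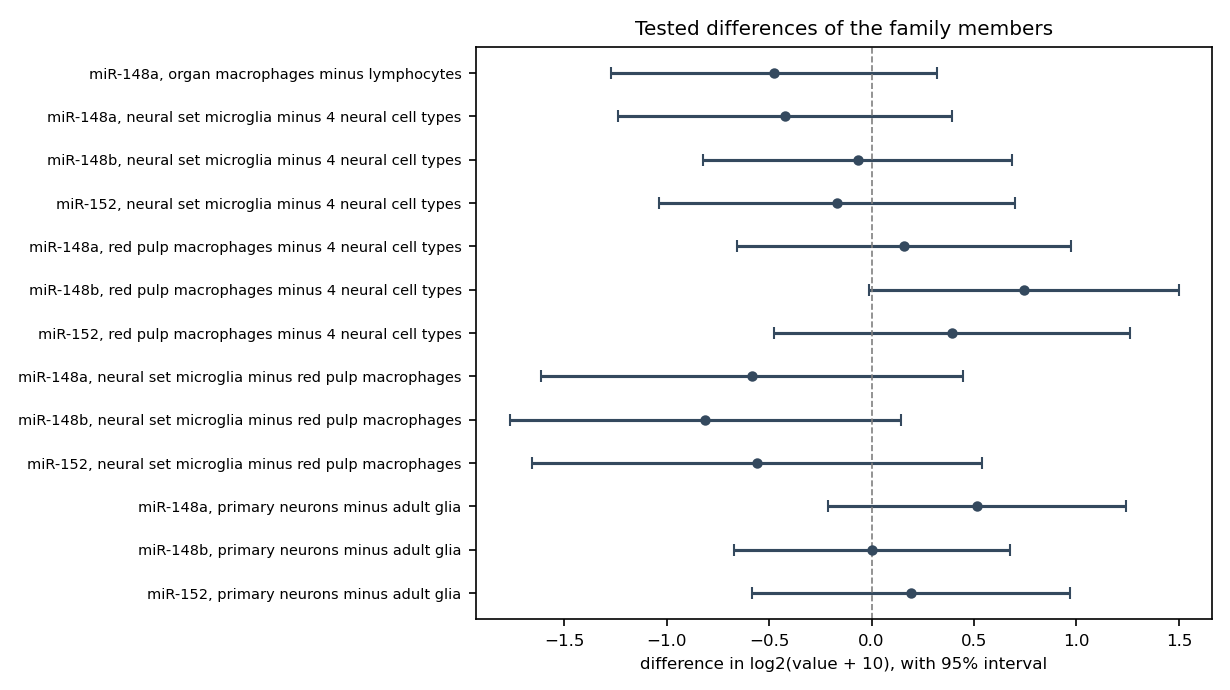
Differences in log2(value + 10) with 95% intervals for the 13 tests of family members, 1 in the immune set and 12 in the neural set. Every interval includes 0, and the nearest to excluding it is miR-148b in red pulp macrophages against the 4 neural cell types, from -0.01 to 1.5.

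The miRNAs whose profile over the 24 immune-set libraries was most like that of miR-148a were miR-10a (Pearson r = 0.683), miR-15b (0.657), miR-223 (0.657), miR-25 (0.622) and miR-93 (0.565), among 131 others with a median of -0.218. The correlations run over log2(signal + 10), and the libraries share depth, background and scaling, so they are a description. By rank correlation 3 of these 5 stayed among the first 5, and 4 of 5 did in the 13 libraries with at least 5000 counts. miR-10a had its highest signals in the same group, with 29.6 to 101.4 in CD11b/Ly6C cells against 7.44 to 25.4 in lymphocytes and 2.62 to 22.7 in microglia, but the 3.82 to 33.6 of organ macrophages overlapped the CD11b/Ly6C range. miR-15b differed from it in lymphocytes, where its signal of 271.1 to 929.5 overlapped the 234.1 to 1044 of CD11b/Ly6C cells.

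Other miRNAs are known to repress DNA methyltransferases, the activity for which the family is best known. Of 9 listed, 6 were tested in the immune set (miR-29a, miR-29b, miR-29c, miR-101b, miR-126-3p and miR-342-3p). By limma 0 were higher in CD11b/Ly6C cells than in microglia, organ macrophages or lymphocytes, also at an unadjusted p under 0.05, while 1, 2 and 1 were lower. Of all 132 miRNAs 12, 17 and 6 were higher and 8, 45 and 3 lower, so 6 miRNAs are too few to read a departure from. edgeR gave the same counts but for 1 higher against organ macrophages. The 1 called lower against microglia was miR-342-3p, with a log2 difference of -3.74 ± 0.577 (SE). Its signals there were 153.3 to 1013, against 6.36 to 32.0 for the CD11b/Ly6C populations. As it was already a microglial miRNA of the study, that call is no test of the list and is given without a p-value. The list's median difference was -0.965 from microglia, 0.0621 from organ macrophages and -1.15 from lymphocytes, against medians of -0.455, -0.664 and 0.135 for all 132 miRNAs, so the list lay under the overall median in 2 comparisons and over it in 1.

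Organ macrophages and lymphocytes differed in all 6 listed miRNAs tested, in a comparison where 68.9% of all miRNAs passed. miR-101b and miR-126-3p, an endothelial miRNA at 5.14 to 751.5 in macrophages, were higher, and miR-29a, miR-29b, miR-29c and miR-342-3p were lower. In the neural set all 9 were tested, and 4 passed between microglia and neural cells, 3 between microglia and red pulp macrophages, 0 between red pulp macrophages and neural cells and 1 between neurons and glia, where 1.94%, 1.77%, 0% and 0.353% of all 566 did. There miR-29a and miR-29b were higher in microglia than the mean of the 4 neural cell types. The log2 differences were 2.21 and 2.12 (limma adjusted p = 0.00525 and 0.00463). miR-126-3p was lower by 1.63 (difference -1.63, adjusted p = 0.0216, limma). miR-342-3p was higher by 3.93, but as it was already a microglial miRNA of the study, its calls here are no test of the list. miR-29a, miR-29b and miR-342-3p were also higher in microglia than in red pulp macrophages. Of the 4 neural cell types, astrocytes came closest to microglia for miR-29a and miR-29b. Astrocytes scored 138 and 302 for miR-29a, which overlapped the 267 and 457 of microglia. For miR-29b they scored 106 and 163, against 176 and 359. Neurons and oligodendrocytes lay lower, at 24 to 127 for miR-29a and 16 to 60 for miR-29b. Between red pulp macrophages and neural cells 0 of 9 passed (limma, 1 at an unadjusted p under 0.05), and miR-126-3p alone was lower in neurons than in glia.

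Of 11 known or predicted target genes listed for the family, 1 was on the 400-gene panel counted in 35 other libraries of this study. This was Abca1, which moves cholesterol out of cells. Its panel signal in the immune set was 92.6 to 402.9 in microglia (median 274.6, n = 7), 2.61 to 47.0 in Ly6C monocytes (median 20.9, n = 4), 25.4 to 189.8 in organ macrophages (median 93.3, n = 7) and 13.7 to 156.5 in lymphocytes (median 48.3, n = 4). The panel signal summed over all genes was 203592 to 547194 in microglia but 30727 to 74620 in monocytes, so whether the ranges overlap depends on the scaling. As a share of that sum, an alternative chosen after seeing the data, Abca1 was 0.0455% to 0.121% in microglia, 0.0085% to 0.0964% in monocytes, 0.0424% to 0.291% in organ macrophages and 0.0292% to 0.261% in lymphocytes, and these ranges overlapped. In the miRNA libraries of the like populations, miR-148a was high in the CD11b/Ly6C cells and under the limit in microglia. miR-152, with the same seed, ran the other way. Its mean was 4.49 in CD11b/Ly6C cells and 16.4 in microglia, where 5 of 7 libraries were above the limit. The panel libraries are not matched to the miRNA libraries and the panel carries no background probes, so these values are set side by side without a test.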

How the data were processed

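miRNA values were used for 36 libraries and gene panel values for 35. In the immune set the deposited miRNA values are a normalised signal: the authors multiplied barcode counts by 1 factor per library, of a basis not given in the sources used here. All values (100%) came out whole within 0.1 of a count. Deposited miRNA values of the neural set are scores, whole numbers after an unstated scaling, whose depth was not recovered here. The deposited panel values are a signal in the immune set and scores in the neural set. The array was not used here, as it holds no mature miRNA of the family.

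The members and lists were chosen with earlier results of these data known. Tests ran on log2(value + 10) in limma 3.58.1 in R 4.3.3 (lmFit, eBayes with a trend) over all groups with replicates of a set, Benjamini-Hochberg adjusted over all miRNAs tested, with a call at an adjusted p under 0.05. miRNAs were tested if above 20 in at least 4 of 22 immune-set or 2 of 12 neural-set libraries. edgeR 4.0.16 was run on the recovered counts as an alternative. The limma fit was tested on simulated data. Named miRNAs are the members, the 5 most like miR-148a, markers and the list of DNA methyltransferase regulators; miR-340-5p was named after its values were seen.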

Additional observations from a re-analysis of the deposited data

How the results depend on the processing

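Log2 differences of miR-148a between CD11b/Ly6C cells and the other groups stayed positive under every alternative run. Against microglia the value was 4.71 with a pseudocount of 1, 1.69 with 50, 2.44 with values raised to the background limit and 6.29 with edgeR on recovered counts. Against organ macrophages it was 1.37 with a pseudocount of 50 and 4.22 with edgeR, and against lymphocytes 1.18 and 2.42. Leaving out 1 library at a time gave 2.88 to 3.59, 1.96 to 2.67 and 1.48 to 2.2. For organ macrophages against lymphocytes the range was -0.652 to -0.342, with edgeR's -1.8 the 1 alternative that made a call. A minimum of 100 left no member to test in the immune set, and values raised to background were not run in the neural set, where nearly all members lie under the limits.

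The Ly6C-low to Ly6C-high ratio of miR-148a in bone marrow was 1.97 when scaled to the 100 highest miRNAs. The bone marrow to spleen ratio in Ly6C-low cells was 0.639 with that scaling and 0.542 per total count, which reverses it. As a share of panel signal, chosen after seeing the data, the microglia to monocyte ratio of the Abca1 medians was 2.09 against 13.1 as deposited. With 3 SD for the limit, miR-148a, miR-148b and miR-152 were above it in 9, 8 and 8 of 36 libraries.

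Neural-set members were called under no alternative, and small differences changed sign. With quantile normalisation miR-148a was at -0.357 in red pulp macrophages against neural cells, and miR-148b and miR-152 at -0.101 and -0.133 in neurons against glia, where scaling to the 100 highest miRNAs put miR-148b at -0.059. Leaving out 1 library gave -0.333 to 0.198 and -0.366 to 0.027 for miR-148b and miR-152 in microglia against neural cells, -0.0153 to 0.331 for miR-148a in red pulp macrophages against neural cells, and -0.204 to 0.209 and -0.201 to 0.585 for miR-148b and miR-152 in neurons against glia. Replicate numbers did not pair the libraries (15 correlations of deviations, -0.251 to 0.082). With the replicate block the miR-148a differences were -0.424, 0.158, -0.582 and 0.514, as without it, and 11, 0, 9 and 2 miRNAs were called.

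The counts of all miRNAs called, which set the background shares, moved most. For CD11b/Ly6C cells against microglia (20) they were 12 with no minimum and with a minimum of 100, 13 when scaled to the 100 highest, and 11 to 27 without 1 library. Against organ macrophages (62) they were 189 with no minimum, 10 with a minimum of 100, 27 with quantile normalisation, 15 without libraries under 5000 counts and 22 to 75 without 1 library. Against lymphocytes (9) they were 15 with the compared groups alone and without libraries under 5000 counts. Organ macrophages against lymphocytes (91) gave 398, 25, 32 and 30 under no minimum, a minimum of 100, quantile normalisation and without shallow libraries. Scaling also turned the split: 71.4% of those 91 calls were higher in organ macrophages against 31.2% after quantile normalisation (87.4% when scaled to the 100 highest), and for CD11b/Ly6C cells against organ macrophages 27.4% became 74.1% (11.9%), and against microglia 60% became 80% (38.5%). In the neural set, microglia against neural cells (11) gave 7 with the compared groups alone and 1 to 48 without 1 library, with 90.9% of calls higher in microglia against 78.6% when scaled to the 100 highest, the count being lowest without the second microglia and highest without the second hippocampal neuron library. Microglia against red pulp macrophages (10) gave 85 alone and 1 without any single library of the 4. Red pulp macrophages against neural cells (0) gave 4 with a minimum of 100 and 0 to 63, and neurons against glia (2) gave 13 with a minimum of 100, 4 with quantile normalisation, 6 when scaled to the 100 highest, 0 alone, and 0 to 289, highest without the second hippocampal neuron library. The cause of these changes was not tested.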
